A study of Saccharomyces cerevisiae with 6 samples.

Results

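The genes described here encode enzymes and complex subunits that attach sugars to secreted and membrane proteins of the yeast Saccharomyces cerevisiae. They were chosen by name, as every feature whose standard name, or whose reference symbol, begins with ALG, OST, PMT, MNN or KTR followed by a number. The rule found 39 of 5703 features, with 12 ALG, 6 OST, 6 PMT, 8 MNN and 7 KTR genes. MNN14 was found through its reference symbol only, and PMT6 was not analysed here. Messenger RNA was sequenced from 3 cultures of strain IMF17, whose glycolytic genes are expressed solely from a neochromosome, an added designer chromosome, and from 3 cultures of strain IMX2109, which expresses glycolysis from the native genome. All cultures were grown with air in selective minimal glucose medium, 100 mL in a flask of 500 mL, to mid-exponential phase at an optical density of 8 at 660 nm. Each genotype is represented by 1 strain, so the placement of glycolysis cannot be told apart from any other difference between the strains.

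In N-glycosylation, the ALG enzymes build an oligosaccharide on the lipid dolichol at the endoplasmic reticulum (ER) membrane, and the oligosaccharyltransferase complex, with its OST subunits, moves it to asparagines of entering proteins. PMT enzymes start O-mannosylation in the ER by placing single mannoses on serines and threonines. In the Golgi, MNN and KTR proteins lengthen and branch both kinds of chain, and the resulting mannan forms the outer layer of the yeast cell wall. All of these mannosyl chains draw on GDP-mannose, directly or through dolichol-phosphate mannose.

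Values are FPKM, reads per kilobase of gene model, scaled to the counted reads of each library, and libraries held 14999412 to 15914985 counted reads in IMF17 and 14696540 to 18801158 in IMX2109. A member gene drew between 374 reads (ALG13) and 7945 reads (PMT2) in a library. At the lowest of these the counting error is 5.17% of the value. IMX2109 replicate 3 stood farthest from its fellows, and it was the highest of the 3 IMX2109 libraries for 23 of the 39 genes. Neochromosome features took 15.0 to 15.7% of the counted reads in IMF17 and 9.02 to 10.01% in IMX2109. Reads of both strains were counted on gene models of the IMF17 assembly. Reads of IMX2109 on these features thus do not by themselves show a neochromosome in that strain. None of the 39 genes lies on the neochromosome (0 of 39). They are spread over 12 of the 16 native nuclear chromosomes, and their models overlap no other feature.

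Expression of this machinery differed little between the strains, with 1 clear exception. KTR2, a Golgi mannosyltransferase gene, was 1.61-fold higher in IMF17, and 10 of the 39 genes were lower there. Their mean FPKM fell by 7.77% (OST2) to 18.0% (ALG3). The lower genes were ALG3 and ALG5 of oligosaccharide assembly, OST1, OST2 and OST3 of the transferase complex, MNN1, MNN9, MNN10 and MNN11 of mannan synthesis, and KTR3. The other 28 genes did not pass the test (limma, linear model with moderated variance on log2(FPKM + 1), adjusted p below 0.05 over all tested features). Over the whole table of 5425 features tested, IMF17 was lower in 25.3%, higher in 12.1%, and different either way in 37.4%. The share of lower members, 25.6%, is thus near that of the whole table, and the median log2 fold change was -0.09 over the members and -0.07 over all features. The log2 fold change was negative for 30 of the 39 genes, against 66.5% of all tested features. In 18 of the 39 genes every IMF17 library lay below every IMX2109 library, against 35.1% of all tested features. The reverse held for KTR2 and ALG1 (2 of 39), against 14.5%. In bulk RNA, fewer cells with a transcript and less transcript per cell cannot be told apart.

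**Figure D1:**
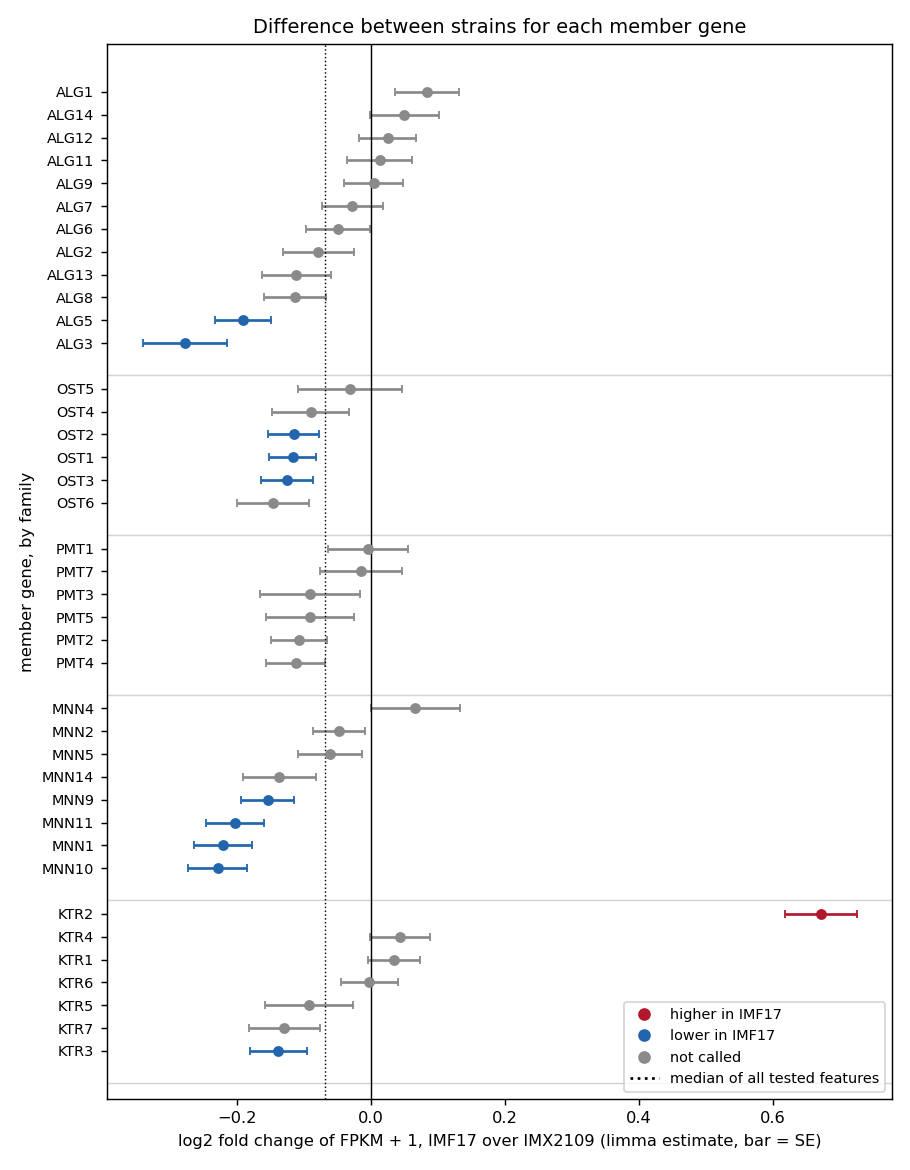
Log2 fold change of FPKM + 1 (IMF17 over IMX2109, horizontal axis) for the 39 genes by family, with bars of 1 SE from the limma fit. KTR2 stands alone at 0.67, and the other genes lie between -0.28 and 0.08 around the dotted median of all tested features at -0.07.

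How far the falls depend on the scale of the libraries was examined with 2 other scalings. A median-ratio rescaling raised the median log2 fold change of all features by 0.06, and rescaling on reads of the native nuclear chromosomes raised it by 0.09. After median-ratio rescaling 3 members were lower and 2 higher, where 11.8% of all tested features were lower and 16.3% higher. After nuclear rescaling 3 were lower and 5 higher, where 8.85% were lower and 19% higher. The lower genes were ALG3, MNN1 and MNN10 both times. KTR2 was higher both times, joined by ALG1 after either rescaling and by ALG12, KTR1 and KTR4 after nuclear rescaling. Leaving out single libraries moved the count of lower genes between 6 and 11. It was 6 without IMF17 replicate 2, where 17.3% of all tested features were lower, and 6 without IMX2109 replicate 2, where 18.0% were. It was 10 without IMX2109 replicate 3, where 23.2% were lower. The calls of KTR3, MNN9, OST1, OST2 and OST3 were lost without IMF17 replicate 2 and also without IMX2109 replicate 2. Those of OST2 and OST3 were lost as well without IMF17 replicate 3 and without IMX2109 replicate 1. Those of ALG3, ALG5, MNN1, MNN10, MNN11 and KTR2 were lost in none of the 6 cases.

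**Figure D2:**
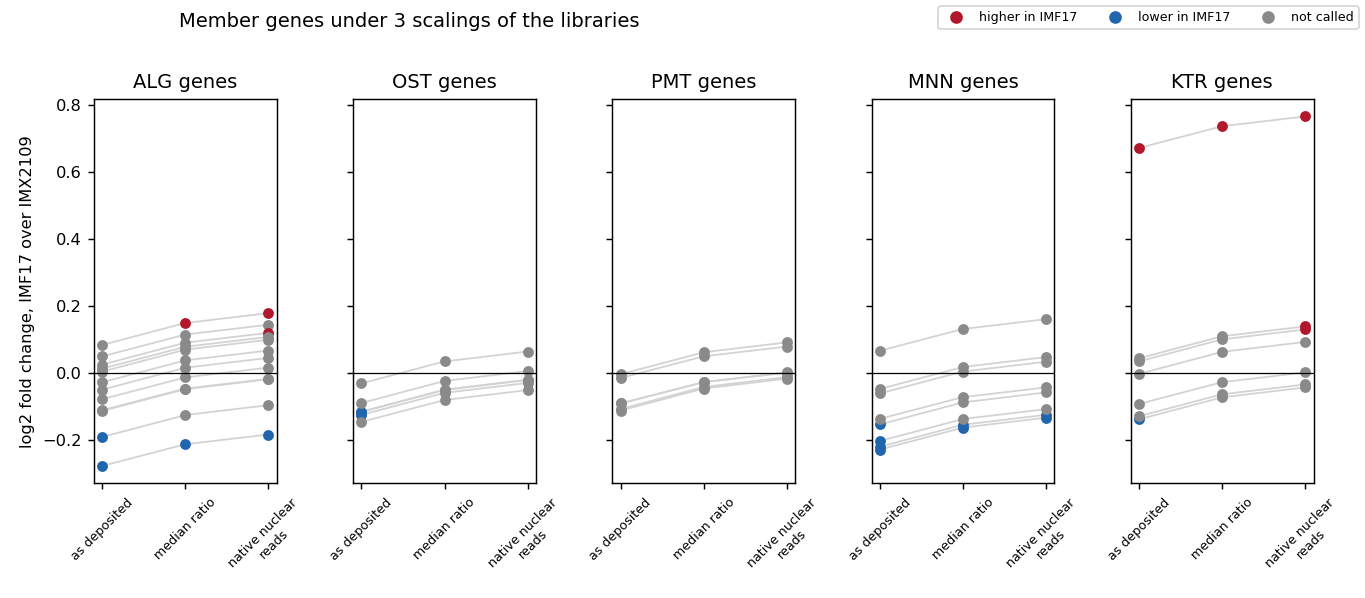
Log2 fold change (IMF17 over IMX2109, vertical axis) of each gene under the deposited scaling, median-ratio rescaling and rescaling on native nuclear reads (horizontal axis), 1 panel per family, coloured by the limma call at an adjusted p of 0.05. All lines shift upward by about the same amount, KTR2 stays between 0.67 and 0.77, and ALG3, MNN1 and MNN10 stay below 0 with a call in each of the 3 columns.

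Among the ALG genes, the early, cytosolic steps of oligosaccharide assembly showed no call in either direction. ALG7, which places the first sugar on dolichol phosphate and is the target of tunicamycin, averaged 71.3 ± 1.79 FPKM in the IMF17 cultures, against 72.8 ± 0.802 FPKM in the IMX2109 cultures (SD, n = 3 each). ALG13 and ALG14, the partners that add the second N-acetylglucosamine, had log2 fold changes of -0.11 and 0.05. ALG1, which adds the first mannose, had 86.6, 90.6 and 87.2 FPKM in IMF17, against 80.2, 82.8 and 86.5 FPKM in IMX2109. Its libraries did not overlap between strains, but the difference of 0.08 ± 0.05 (log2, SE) did not pass (limma adjusted p = 0.194). ALG2 and ALG11, which add the next mannoses, had log2 fold changes of -0.08 and 0.01.

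The strains differed at ALG3 and ALG5, the 2 ALG genes that were called. ALG3, which adds the first mannose inside the ER, had 37.8, 38.8 and 41.1 FPKM in IMF17, against 50.8, 47.7 and 44.9 FPKM in IMX2109. No library of one strain reached the range of the other, and ALG3 was 1.22-fold lower in IMF17 (log2 fold change -0.28 ± 0.06 SE, limma adjusted p = 0.00569). ALG5, which makes the dolichol-phosphate glucose that feeds the last steps, had 84.1, 85.4 and 86.5 FPKM in IMF17, against 97.9, 98.2 and 96.8 FPKM in IMX2109. It was 1.14-fold lower, with little spread within either strain (limma adjusted p = 0.00486). The fall of ALG5 was no longer called after median-ratio rescaling (limma adjusted p = 0.0506) or nuclear rescaling (0.108).

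The other luminal mannosyltransferases, ALG9 and ALG12, had log2 fold changes of 0.00 and 0.02. ALG9 had the highest FPKM of the family on the deposited models, of which its own is 306 bases shorter than the R64 gene, at 104, 107 and 100.02 FPKM in IMF17, against 103, 104 and 104 FPKM in IMX2109, and the ranges of the strains overlap. ALG6 and ALG8, the glucosyltransferases that use the product of ALG5, had log2 fold changes of -0.05 and -0.11 without a call. ALG8 libraries did not overlap, at 60.0 to 62.3 FPKM in IMF17, against 66.2 to 66.6 FPKM in IMX2109 (limma adjusted p = 0.0764). Summed over the 12 ALG genes, FPKM came to 865 ± 7.92 in IMF17 and 893 ± 8.33 in IMX2109 (SD, n = 3 each), a ratio of 0.969, which turned to 1.01 after median-ratio and 1.04 after nuclear rescaling.

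All 6 OST genes had a negative log2 fold change, against 66.5% of all tested features. The test called 3 of the 6 lower, against 25.3% of all tested features. OST1, the homolog of mammalian ribophorin I and the highest of the 39 in FPKM on the deposited models, had 263, 262 and 263 FPKM in IMF17, against 284, 282 and 289 FPKM in IMX2109. It was 1.09-fold lower in IMF17, a small step set against a narrow spread (log2 fold change -0.12 ± 0.04 SE, limma adjusted p = 0.0225). OST3, a subunit with a thioredoxin-like fold, had 186, 182 and 182 FPKM in IMF17, against 206, 198 and 196 FPKM in IMX2109 (limma adjusted p = 0.0266). OST2, the homolog of mammalian DAD1, had 192, 190.2 and 185 FPKM in IMF17, against 206, 203 and 207 FPKM in IMX2109 (limma adjusted p = 0.0313). The libraries of the strains did not overlap for any of these 3 genes, and none of the 3 was called after median-ratio or nuclear rescaling. OST2 was not called with voom weights on recovered reads either.

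OST6 takes the place of OST3 in a second form of the complex. It lay at 82.9, 80.5 and 80.6 FPKM in IMF17, against 89.0, 85.1 and 96.7 FPKM in IMX2109, without overlap and just outside the threshold (limma adjusted p = 0.052). It was called without IMX2109 replicate 2. The ratio of OST3 to OST6 within a library, which no scaling of libraries can alter, was 2.24, 2.26 and 2.25 in IMF17 and 2.32, 2.32 and 2.02 in IMX2109. The balance of the alternative subunits thus overlapped between strains. The small subunits OST4 and OST5 had log2 fold changes of -0.09 and -0.03. Their gene models are 266 and 229 bases longer than the R64 reference genes, and their levels are not set against those of other genes. The non-member subunits moved alike in part. SWP1 and WBP1 were 1.11-fold and 1.08-fold lower (limma adjusted p = 0.0172 and 0.0419). The catalytic subunit STT3 had 156, 157 and 155 FPKM in IMF17, against 158, 159 and 169 FPKM in IMX2109. Its libraries did not overlap between strains, but it was not called (limma adjusted p = 0.330). The calls of SWP1 and WBP1 were lost after median-ratio and nuclear rescaling, and without IMF17 replicate 1, IMX2109 replicate 1 or IMX2109 replicate 2. That of WBP1 was lost also after TPM rescaling, and without IMF17 replicate 2 or IMF17 replicate 3.

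None of the PMT genes was called (limma, 0 of 6), against 37.4% of all tested features called either way. Of these 6 genes 2, PMT2 and PMT4, had an unadjusted limma p below 0.05, and limma-voom also called 0. PMT2, the most abundant of them, had 169.8, 182 and 170.4 FPKM in IMF17, against 185, 187 and 191 FPKM in IMX2109. PMT4, which acts as a homodimer and prefers membrane-anchored substrates, had 132, 133 and 127 FPKM in IMF17, against 136, 142 and 146 FPKM in IMX2109. Neither pair of ranges overlapped, and the limma adjusted p was 0.062 for PMT2 and 0.0661 for PMT4. PMT2 was called without IMF17 replicate 2, and PMT4 without IMX2109 replicate 1. PMT1, the usual partner of PMT2, spread from 124 to 128 FPKM in IMF17 and from 116 to 139 FPKM in IMX2109, and its difference was 0.00 ± 0.06 (log2, SE).

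Within the PMT family levels differed far more than between strains. PMT2 exceeded its relative PMT3 by 7.72-fold to 8.83-fold in the IMF17 libraries and by 7.67-fold to 8.71-fold in the IMX2109 libraries. PMT1 exceeded PMT5, its neighbour on chromosome 4, by 4.84-fold to 5.05-fold in IMF17 and 4.45-fold to 4.85-fold in IMX2109. Both ratios overlapped between strains. PMT7, a less studied relative, had 41.3 ± 2.42 FPKM in IMF17, against 41.7 ± 1.29 FPKM in IMX2109 (SD, n = 3 each).

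The MNN family held 4 of the 10 falls among its 8 genes, where 25.3% of all tested features were lower. MNN1 and MNN10 kept the call after either rescaling. There 11.8% (median-ratio) and 8.85% (nuclear) of all tested features were lower. MNN9 is a subunit of both mannan polymerase complexes, the enzymes that build the long mannose backbone, and MNN10 and MNN11 belong to the second of them. MNN10 had 162, 166 and 173 FPKM in IMF17, against 197, 202 and 189 FPKM in IMX2109. Its highest IMF17 library lay well under its lowest IMX2109 library, and it was 1.17-fold lower in IMF17 (log2 fold change -0.23 ± 0.04 SE, limma adjusted p = 0.0021). MNN11 had 136, 134 and 131 FPKM in IMF17, against 161, 150.1 and 151 FPKM in IMX2109, again without overlap (1.15-fold lower, limma adjusted p = 0.00399). MNN9 had 238, 235 and 249 FPKM in IMF17, against 261, 272 and 271 FPKM in IMX2109 (1.11-fold lower, limma adjusted p = 0.0108). The falls of MNN9 and MNN11 were no longer called after median-ratio or nuclear rescaling.

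The partners of these subunits outside the family did not all pass the test. HOC1, of the second complex, was 1.11-fold lower in IMF17 (limma adjusted p = 0.0107), a call lost after median-ratio and nuclear rescaling. ANP1, of the same complex, had 162 ± 1.81 FPKM in IMF17, against 169 ± 1.40 FPKM in IMX2109 (SD, n = 3 each). Its IMF17 libraries all lay below its IMX2109 libraries, but the difference did not pass (limma adjusted p = 0.239). VAN1, the partner of MNN9 in the first complex, had 90.0 ± 2.74 FPKM in IMF17, against 91.7 ± 4.96 FPKM in IMX2109 (limma adjusted p = 0.715). OCH1, which starts the outer chain, had a log2 fold change of 0.02.

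MNN1 adds the terminal mannose to N-linked and O-linked chains. It had 165, 159 and 162 FPKM in IMF17, against 180.4, 189.9 and 196 FPKM in IMX2109. All IMF17 libraries lay below, and MNN1 was 1.17-fold lower (log2 fold change -0.22 ± 0.04 SE, limma adjusted p = 0.00255). MNN2 and MNN5, which start and extend the side branches of mannan, had log2 fold changes of -0.05 and -0.06, and their ratio within a library averaged 1.92 ± 0.0734 in IMF17 and 1.90 ± 0.0348 in IMX2109.

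MNN4, a positive regulator of mannosylphosphate addition to the cell wall, and its paralog MNN14 leaned apart. MNN4 had 55.8, 56.6 and 52.4 FPKM in IMF17, against 48.7, 51.6 and 57.3 FPKM in IMX2109, and MNN14 had 43.2, 41.1 and 42.4 FPKM in IMF17, against 44.8, 47.8 and 47.1 FPKM in IMX2109. Neither passed the test (limma adjusted p = 0.462 for MNN4 and 0.0703 for MNN14), and MNN14 was called with voom weights and without IMX2109 replicate 1. The ratio of MNN4 to MNN14 was 1.24 to 1.38 in IMF17 libraries and 1.08 to 1.22 in IMX2109 libraries, with no overlap. The two-sided exact permutation p of this ratio was 0.1, the smallest that 3 against 3 allows, and 0.4 after adjustment over the 8 gene pairs compared in this way. Summed over the 8 MNN genes, FPKM was 1002 ± 9.05 in IMF17 and 1115 ± 13.9 in IMX2109 (SD, n = 3 each), a ratio of 0.898. That ratio was 0.940 after median-ratio and 0.960 after nuclear rescaling.

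KTR2 is the gene of the set that stands apart. It lies on chromosome 11 at 554803 to 555891, plus strand, in the IMF17 assembly, and encodes a mannosyltransferase of the KRE2 family that acts on N-linked chains. It had 63.3, 68.8 and 67.3 FPKM in IMF17, against 41.3, 40.6 and 42.1 FPKM in IMX2109, from 1083, 1123 and 1167 reads in IMF17 and 845, 798 and 673 reads in IMX2109. Each IMF17 library lay above every IMX2109 library, a gap far wider than the spread within either strain. The log2 fold change was 0.67 ± 0.05 (SE, limma adjusted p = 3.36e-06), and over the 16 alternative settings it ranged from 0.63 to 0.77, always with a call. Of the 654 features higher in IMF17, 199 had a larger log2 fold change.

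YUR1, the paralog of KTR2, did not differ in this way, with 41.0, 39.1 and 43.3 FPKM in IMF17, against 36.9, 38.0 and 42.3 FPKM in IMX2109 (limma adjusted p = 0.433). The ratio of KTR2 to YUR1 within a library was 1.54 to 1.76 in IMF17, against 0.993 to 1.12 in IMX2109 (two-sided exact permutation p = 0.1, the smallest possible, and 0.4 adjusted over the 8 pairs). The KTR2 model is 189 bases shorter than the R64 gene, so this ratio is read between strains and not as the relative level of the paralogs. The sources used here do not say how reads shared by paralogs were counted. The features beside KTR2 did not rise with it. UTP30, 523 bases to its left, was lower in IMF17 (log2 fold change -0.29, limma adjusted p = 0.00623), and TFA2, 711 bases to its right, had a log2 fold change of 0.01 (limma adjusted p = 0.871).

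**Figure D3:**
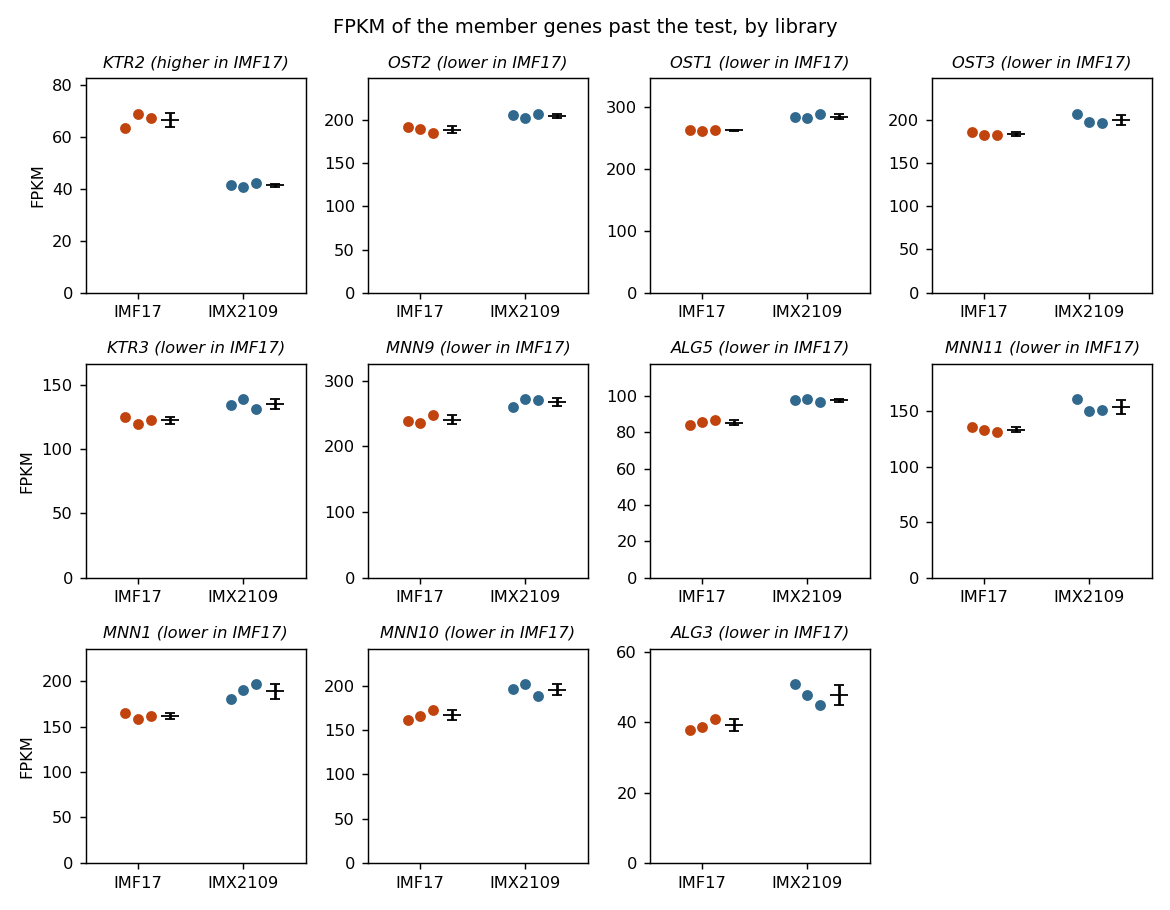
FPKM (vertical axis, from 0) of the 11 genes past the test in the 3 IMF17 and 3 IMX2109 libraries (points), with mean and SD (black). KTR2 sits at 63.3 to 68.8 FPKM in IMF17, against 40.6 to 42.1 FPKM in IMX2109, whereas the 10 lower genes differ by small steps between groups that do not overlap.

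The other KTR genes moved little. KTR3, which with KTR1 and KRE2 lengthens O-linked and N-linked chains, had 125, 119 and 123 FPKM in IMF17, against 134, 139 and 131 FPKM in IMX2109. The ranges did not overlap, and KTR3 fell by 9.27% in IMF17 (limma adjusted p = 0.0245), a call lost after median-ratio (0.277) and nuclear rescaling (0.493). KTR1, the most abundant of the family, had 218, 218 and 227 FPKM in IMF17, against 222, 211 and 216 FPKM in IMX2109, with overlapping ranges. Its ratio to its relative KRE2 was 0.898 to 0.924 in IMF17 and 0.890 to 0.943 in IMX2109.

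KTR6, the mannosylphosphate transferase also known as MNN6, was at 143 ± 4.54 FPKM in IMF17, against 144 ± 3.52 FPKM in IMX2109 (SD, n = 3 each). KTR4, KTR5 and KTR7 are named for their likeness to the family, and their log2 fold changes were 0.04, -0.09 and -0.13. KTR7 had 74.2 to 75.5 FPKM in IMF17, against 78.6 to 88.3 FPKM in IMX2109, and was called only without IMX2109 replicate 1 among the settings tried (limma adjusted p = 0.0798 with all libraries). The KTR genes together summed to 871 ± 9.62 FPKM in IMF17, against 859 ± 16.5 FPKM in IMX2109 (SD, n = 3 each). The direction of this sum rests on KTR2, as the other 6 genes summed to 805 ± 11.7 FPKM in IMF17, against 817 ± 15.9 FPKM in IMX2109.

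Genes of the same pathways outside the 5 families were described through 7 lists, of which 80 of 83 genes were in the tables. Of these 80 genes 18 were lower and 1 higher in IMF17, against 25.3% and 12.1% of all tested features. The clearest differences lay in the list of GDP-mannose supply and nucleotide sugar transport, where 5 of 9 genes were lower and 0 higher. Its median log2 fold change was -0.14, and the 5 lower genes were PSA1, SEC53, VRG4, GDA1 and HUT1. PSA1, the enzyme that makes GDP-mannose, had 1552, 1549.8 and 1527 FPKM in IMF17, against 2071, 2062 and 1966 FPKM in IMX2109. It was 1.32-fold lower in IMF17, with the ranges of the strains far apart (log2 fold change -0.40 ± 0.04 SE, limma adjusted p = 1.2e-05). SEC53, the phosphomannomutase one step before it, had 627, 602 and 624 FPKM in IMF17, against 739, 743 and 697 FPKM in IMX2109 (1.18-fold lower, limma adjusted p = 0.000992). Both were called in all 16 alternative settings.

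VRG4, which carries GDP-mannose into the Golgi, was 1.15-fold lower in IMF17 (356 ± 1.94 FPKM in IMF17, against 409 ± 12.7 FPKM in IMX2109; limma adjusted p = 0.00206), a call lost after median-ratio and nuclear rescaling. PMI40, the mannose-6-phosphate isomerase that opens the route from glycolytic fructose-6-phosphate, had 199 ± 0.674 FPKM in IMF17, against 209.8 ± 8.60 FPKM in IMX2109 (limma adjusted p = 0.165). After either rescaling, PSA1 and SEC53 were the 2 genes of the list still called. Without IMF17 replicate 2 the list had 3 calls, PSA1, SEC53 and VRG4.

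**Figure D4:**
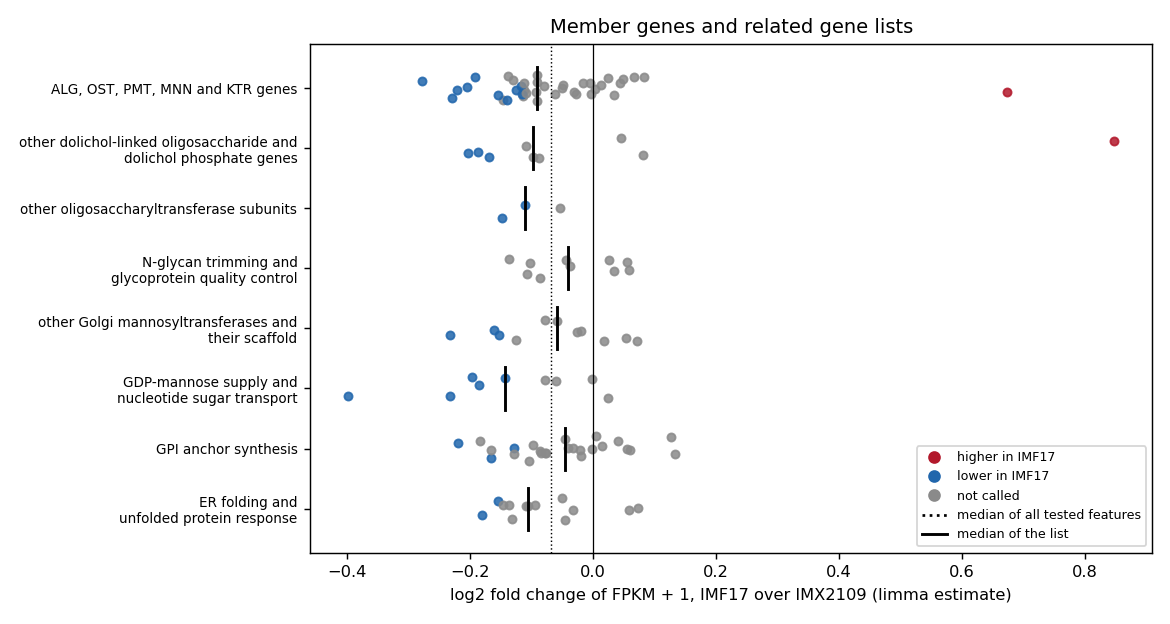
Log2 fold change (IMF17 over IMX2109, horizontal axis) of the 39 genes and of 7 lists of related genes, each point a gene coloured by its limma call and each black bar the median of its list. PSA1 lies farthest left at -0.40, and KTR2 at 0.67 and SRT1 at 0.85 lie apart on the right, SRT1 at 0.34 with a pseudocount of 5 FPKM.

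Among the other 9 genes of dolichol and dolichol-linked sugar synthesis, 3 were lower and 1 higher, against 25.3% and 12.1% of all tested features. The higher one was SRT1, a cis-prenyltransferase of dolichol synthesis, with 2.77, 2.39 and 2.74 FPKM in IMF17, against 0.670, 1.40 and 1.05 FPKM in IMX2109 (limma adjusted p = 0.00107). Its levels are low in both strains, and the size of its log2 fold change depended on the setting, from 0.34 with a pseudocount of 5 FPKM to 1.38 with voom weights, called in each of the 15 alternatives that tested it. RER2, the main cis-prenyltransferase, had 57.6, 66.7 and 69.6 FPKM in IMF17, against 70.4, 73.2 and 79.7 FPKM in IMX2109, and was lower at the edge of the test (limma adjusted p = 0.0499). Its call was lost in 11 of the 16 alternatives. DIE2, the last glucosyltransferase of the assembly, was 1.14-fold lower (limma adjusted p = 0.0228). This list had 2 calls without IMF17 replicate 1 and 2 without IMF17 replicate 2, against 4 with all libraries. DIE2 lost its call without IMF17 replicate 1, IMF17 replicate 3 or IMX2109 replicate 1. No gene of the list was lower after median-ratio or nuclear rescaling, and NUS1 was higher after the nuclear one.

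Of 11 other Golgi mannosyltransferases and scaffold genes 3 were lower and 0 higher, against 25.3% and 12.1% of all tested features. GNT1, an N-acetylglucosaminyltransferase and the neighbour of PMT3, had 84.4, 86.5 and 82.8 FPKM in IMF17, against 101.7, 99.4 and 97.4 FPKM in IMX2109 (1.18-fold lower, limma adjusted p = 0.00217, called in all 16 alternatives). MNT2 was 1.12-fold lower (limma adjusted p = 0.0263), a call lost after median-ratio, nuclear and TPM rescaling and without IMF17 replicate 1, IMF17 replicate 2 or IMX2109 replicate 2. After nuclear rescaling GNT1 was lower and KRE2 higher. Of 25 genes of GPI anchor synthesis, which also uses dolichol-phosphate mannose, 3 were lower and 0 higher, namely GPI11, GAA1 and PER1. At 12% lower genes this list lay under the 25.3% of all tested features. Without IMF17 replicate 2 and without IMX2109 replicate 2 GPI11 alone was called. After median-ratio rescaling 1 gene of the list was lower (GPI11) and 2 higher (BST1 and CWH43). Of all tested features 11.8% were lower and 16.3% higher there. After nuclear rescaling 0 genes of the list were lower and 3 higher, with GPI17 added, where 8.85% of all tested features were lower and 19% higher.

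Lower calls took 0% of the genes of glycoprotein quality control and 15.4% of those of ER protein folding, against 25.3% of all tested features. In the ER folding list 11 log2 fold changes were negative and 2 positive, where 66.5% of all tested features were negative. The median of that list was -0.11, against -0.07 over all tested features. In 6 of its 13 genes every IMF17 library lay below every IMX2109 library, against 35.1% of all tested features. None of 10 genes of N-glycan trimming and quality control was called by limma or limma-voom (0 of 10), and 1, MNL1, had an unadjusted p below 0.05. Of 13 genes of ER folding and the unfolded protein response 2 were lower and 0 higher, MPD2 and SCJ1, with 0 called without IMF17 replicate 2 or without IMX2109 replicate 2, and 1, KAR2, without IMF17 replicate 1. SCJ1 was also not called without IMX2109 replicate 3, and neither was called after median-ratio or nuclear rescaling. EPS1 was higher after nuclear rescaling. KAR2, the ER Hsp70 chaperone and a classic target of the unfolded protein response, had 321, 307 and 288 FPKM in IMF17, against 332, 332 and 322 FPKM in IMX2109 (limma adjusted p = 0.0881). HAC1, the transcription factor of that response, had 404 ± 25.3 FPKM in IMF17, against 412 ± 10.7 FPKM in IMX2109 (SD, n = 3 each; limma adjusted p = 0.623). HAC1 acts through splicing of its transcript, which these values do not resolve.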

How the data were processed

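Per the file headers, the authors deposited FPKM for 5703 features in 1 table per library, on gene models of a polished IMF17 assembly, which served for the libraries of both strains. The tools named in the submitters' processing notes are featureCounts, DESeq2, edgeR, SAMtools and STAR 2.5.4a. Settings, strand use and the handling of multiply mapped reads were not given in the sources used here. Strains and replicates came from the sample titles. Dividing FPKM times model length by the value of 1 read recovered whole reads for 100% of values (tolerance 0.01 reads). Member models matched R64 gene lengths for 31 genes and differed for 8.

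Features with a mean of at least 1 FPKM were tested with limma 3.58.1 (R 4.3.3; two-sided, with a trend in the prior variance) on log2(FPKM + 1), which understates changes of low genes, with Benjamini-Hochberg adjustment at 0.05. Folds are ratios of mean FPKM. The labels name biological triplicates. Alternatives were other pseudocounts, filters, scalings, robust variances, voom, a replicate block and leaving out libraries. Named genes were, per family, up to 4 called members with the smallest p, the most abundant member and members whose call changed with scaling, and up to 3 called genes per list; further genes were named after their values were seen. The members and lists were chosen with earlier results of these data known. A planned promoter motif search was not run. A gene of the dolichol list is counted but not reported here by name. Paralog ratios were compared by exact permutation (scipy 1.17.1).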

Additional observations from a re-analysis of the deposited data

How the results depend on the processing

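Of the 16 alternatives, those on pseudocount (0.5 and 5 FPKM), filter (none and 10 FPKM), TPM rescaling and robust variance left the members at 1 higher and 10 lower. After median-ratio rescaling 2 were higher and 3 lower, and after nuclear rescaling 5 were higher and 3 lower. Leaving out single libraries gave 1 higher each time and 6 to 11 lower, where 9.68 to 14.0% of all tested features were higher and 17.3 to 24.4% lower. Called genes ranged under leaving out libraries from 2 to 4 in the dolichol list, 0 to 2 among other oligosaccharyltransferase subunits, 3 to 5 in GDP-mannose supply, 1 to 4 in GPI anchor synthesis and 0 to 2 in ER folding. Median-ratio rescaling left calls in 1 of 9 genes (dolichol list), 0 of 3 (oligosaccharyltransferase), 2 of 9 (GDP-mannose) and 0 of 13 (ER folding). Among other Golgi mannosyltransferases it left 1 of 11. After nuclear rescaling the counts were 2 (dolichol, both higher), 0 (oligosaccharyltransferase), 2 (GDP-mannose, both lower), 1 (ER folding, higher) and 2 (Golgi mannosyltransferases, 1 lower and 1 higher). After TPM rescaling oligosaccharyltransferase subunits and GPI anchor synthesis had 1 each. 

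Ratios of summed FPKM, IMF17 over IMX2109, became 1.01 (ALG), 0.971 (OST), 0.940 (MNN) and 1.06 (KTR) after median-ratio rescaling, and 1.04 (ALG), 0.992 (OST), 1.01 (PMT), 0.960 (MNN) and 1.08 (KTR) after nuclear rescaling, against 0.969, 0.928, 0.947, 0.898 and 1.01 for ALG, OST, PMT, MNN and KTR as deposited. Without KTR2 the KTR ratio was 0.985. This alternative, and leaving out libraries for these sums, were chosen after seeing the data.

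The sign of 15 members without a call turned in some setting. After median-ratio rescaling the log2 fold changes were 0.017 (MNN2), 0.037 (ALG7), 0.049 (PMT7), 0.061 (PMT1), 0.0037 (MNN5), 0.015 (ALG6), 0.063 (KTR6) and 0.034 (OST5). After nuclear rescaling they were 0.047 (MNN2), 0.067 (ALG7), 0.078 (PMT7), 0.091 (PMT1), 0.00091 (PMT5), 0.016 (ALG2), 0.033 (MNN5), 0.0012 (KTR5), 0.045 (ALG6), 0.00047 (PMT3), 0.092 (KTR6), 0.0053 (OST4) and 0.064 (OST5). Without single libraries the ranges were -0.054 to 0.029 (PMT7), -0.062 to 0.065 (PMT1), -0.020 to 0.029 (ALG9), -0.016 to 0.031 (ALG11), -0.024 to 0.021 (KTR6) and -0.135 to 0.056 (OST5). The cause of these turns was not tested.

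The labels do not say whether equal replicate numbers of the strains share a batch. Correlations of deviations from the strain means over 5425 features were 0.095, -0.052 and 0.137 for numbers 1, 2 and 3. Not every library correlated best with its own number, but 3 libraries per strain cannot settle whether the numbers pair the samples. With a replicate block 1 member was higher and 11 lower, OST6 being added, and over all features 685 were higher and 1517 lower, against 654 and 1375 without the block. With 3 libraries per strain the limit of the test differed by gene: OST2 fell by 7.77% with a call, while OST6, at a difference of -9.90%, was not called.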

Other observations

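Several of the 39 genes sit beside genes that differed more between the strains. KTR1 has CRC1, which encodes the mitochondrial carnitine carrier, 288 bases to its right. CRC1 averaged 16.8 FPKM in IMF17 and 6.27 FPKM in IMX2109 (log2 fold change 1.29, limma adjusted p = 5.05e-06), while KTR1 had a log2 fold change of 0.03. ALG6 has YSP3, of a family of vacuolar proteases, 403 bases to its right, with 19.4 FPKM in IMF17 and 14.1 FPKM in IMX2109 (limma adjusted p = 0.000992). OST2 lies between RAS1, the GTPase gene, at 76.8 FPKM in IMF17, against 99.5 FPKM in IMX2109, and PIN2, at 74.4 FPKM in IMF17, against 62.3 FPKM in IMX2109. RAS1 was lower and PIN2 higher in IMF17 (limma adjusted p = 0.00109 and 0.00305). ALG14 lies beside BAP2, a permease of branched-chain amino acids, at 16.8 FPKM in IMF17, against 26.0 FPKM in IMX2109 (limma adjusted p = 0.000118). These neighbours were named after their values were seen. Over all tested features 37.4% were called either way, and whether neighbours of the members exceed this share was not tested.

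Spread among cultures also differed by gene. The coefficient of variation over the 39 genes had a median of 2.38% in IMF17 and 3.46% in IMX2109. It reached 13.2% in IMX2109 for OST5, with 140.3, 127 and 107 FPKM in replicates 1, 2 and 3 of that strain, and 0.364% in IMF17 for the same gene.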
